A study of Mus musculus with 12 samples.

Results

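The genes described here are 7 Sox transcription factors: the SoxC factors Sox4, Sox11 and Sox12, the SoxD factors Sox5, Sox6 and Sox13, and the SoxE factor Sox9. All probe sets whose gene symbol in the platform annotation was 1 of these 7 names were taken, which gave 32 of the 34945 probe sets with a single symbol and 7 of 18193 genes. The 7 genes were chosen by their intensities in the same 3 vector groups that are compared below, so their differences are given as a description. Where members are counted as called, the count comes from the fit over all genes and is no test of the 7 genes.

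The arrays measured RNA from B16-F10 cells, an established pigmented mouse melanoma line, 24 h after transfection. One group received pMES with chicken FoxD3-VP16, a fusion whose C-terminal repression domain was exchanged for the VP16 activation domain, another received pMES with chicken FoxD3, and the third received empty pMES. In every group the vector made EGFP through an IRES behind a chick beta-actin promoter, and EGFP-positive cells were collected by sorting. Each of the 3 groups had 4 arrays, with replicate numbers 1 to 4 in the titles. Nothing in the labels ties the replicates to separate cultures. The p-values therefore cover the spread among these arrays only, and that spread may be technical.

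Sox proteins bind DNA through an HMG box and work with partner factors. SoxC proteins are transcriptional activators best known from neuronal and mesenchymal progenitors. SoxD proteins have a coiled-coil domain for dimerization and lack an activation or repression domain of their own. Sox9, with Sox5 and Sox6, drives the cartilage programme, and in the embryo Sox9 also acts early in the neural crest, the origin of melanocytes. FoxD3 is a forkhead factor of the premigratory neural crest that is mainly described as a repressor.

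All levels below are log2(intensity + 16) after quantile normalization, and differences are on that scale, where changes of dim genes come out too small. A gene is named as called when its Benjamini-Hochberg adjusted p from limma, over all 10916 tested genes, was under 0.05. Genes with a mean level below 5.98 were not tested. All 7 melanocyte markers were above that limit, as were 3 of 7 fibroblast markers, 1 of 4 leukocyte markers and none of the keratinocyte or endothelial markers. The 3 arrays numbered 1 stood apart: the 3′ probe set of Gapdh exceeded the 5′ one by 0.56 to 0.77 there and by -0.25 to 0.04 on the other 9. Arrays with the same number deviated together in all 12 pairs, so a second fit with the replicate number as a block is cited where it changes a call. The probe set for mouse Foxd3 had a mean level of 4.71 and cannot check the chicken transgenes. In these bulk samples a fall in the number of cells that make an RNA and a fall in RNA per cell cannot be told apart.

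With FoxD3-VP16 the SoxC factors Sox4 and Sox11 were higher than with the empty vector, and with FoxD3 they were lower than with the empty vector. Sox6 was lower with FoxD3 and close to the empty vector with FoxD3-VP16. For FoxD3-VP16 against the empty vector, 0 of the 6 tested genes of the 7 were called without the block, where 0.522% of all tested genes were called higher and 0.0733% lower. In that comparison 2 of the 6 had an unadjusted limma p under 0.05, both higher, against 5.51% of all tested genes, and with the block Sox4 and Sox11 were called higher, against a background of 5.73%. For FoxD3 against the empty vector, Sox11 and Sox6 were called lower, where 1.12% of all tested genes were; the block added Sox4, against a background of 9.21%. For FoxD3-VP16 against FoxD3, Sox4, Sox11 and Sox6 were called higher, with a background of 4.44%, and the block added Sox5, with a background of 14.6%. Nothing is read from these counts, because the genes were selected on these comparisons. The median difference of the 6 tested genes was 0.29 for FoxD3-VP16 against the empty vector, -0.71 for FoxD3 against the empty vector and 0.77 for FoxD3-VP16 against FoxD3, while the medians of all tested genes were -0.02, -0.00 and -0.03. The comparisons with the empty vector share its 4 arrays, and no likeness between them is given.

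**Figure D1:**
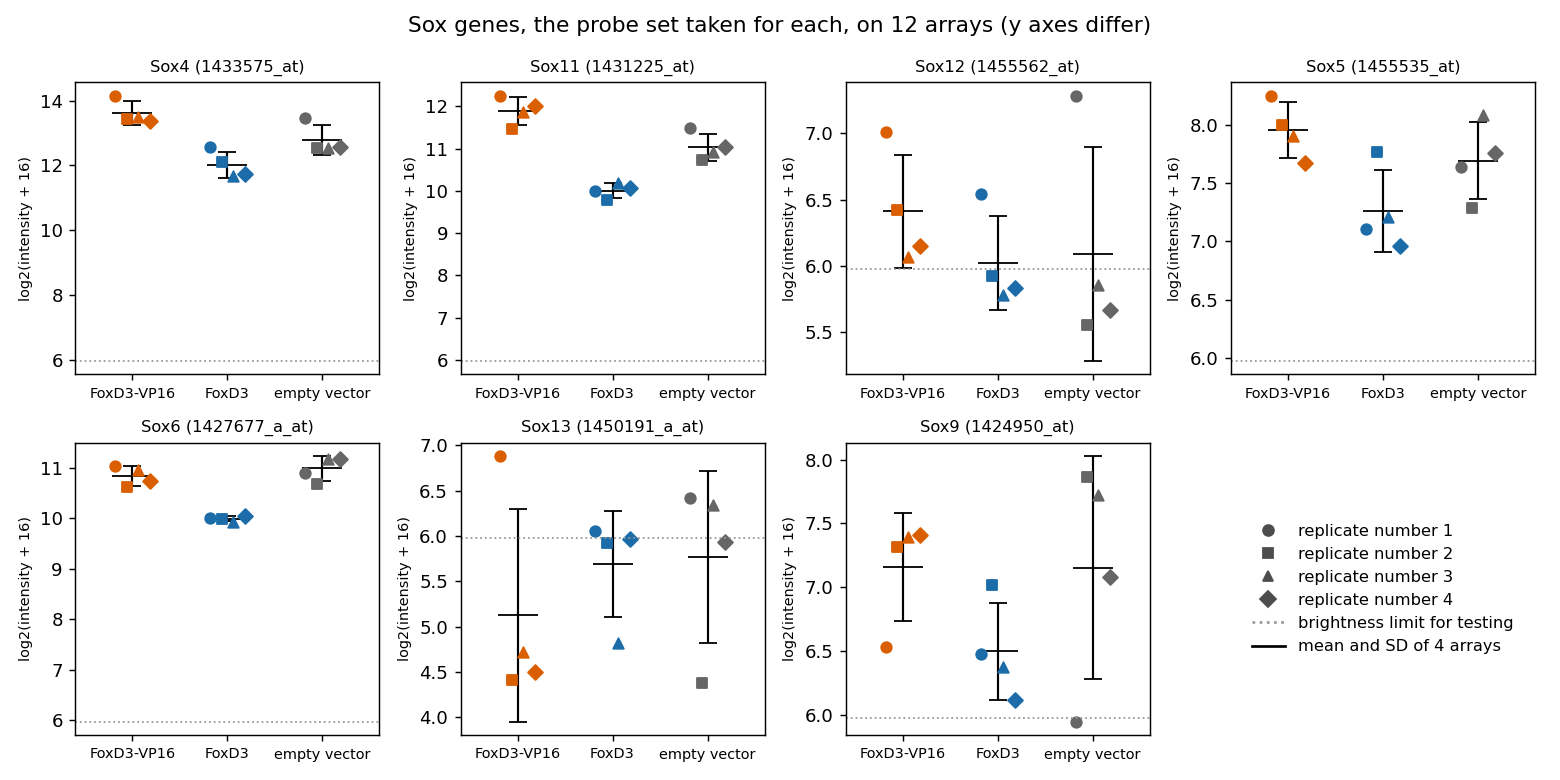
Level of each of the 7 genes, as log2(intensity + 16) of its brightest probe set, on every array, for FoxD3-VP16, FoxD3 and empty vector from left to right; points are arrays with the shape giving the replicate number, lines are the mean and SD of 4 arrays, and the dotted line is the limit for testing. For Sox11 the FoxD3 arrays lie between 9.78 and 10.19, below all 4 empty vector arrays at 10.72 to 11.47, while for Sox12, Sox5, Sox13 and Sox9 the groups overlap.

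Sox4 is a SoxC activator that supports the survival and differentiation of neural and mesenchymal progenitors. Its brightest probe set, 1433575_at, read 14.15, 13.42, 13.50 and 13.37 on FoxD3-VP16 arrays 1 to 4. It read 12.56, 12.10, 11.69 and 11.74 on the FoxD3 arrays and 13.47, 12.53, 12.54 and 12.57 on the empty vector arrays. Within every replicate number the FoxD3-VP16 array was highest and the FoxD3 array lowest. Across numbers, FoxD3-VP16 and FoxD3 did not overlap with each other, whereas both overlapped with the empty vector: FoxD3 array 1 was above empty vector arrays 2 and 3, and empty vector array 1 was above FoxD3-VP16 arrays 2 and 4. Group means were 13.61 ± 0.37 with FoxD3-VP16, 12.02 ± 0.40 with FoxD3 and 12.78 ± 0.46 with the empty vector (SD, n = 4 each). The difference was 0.83 for FoxD3-VP16 against the empty vector, -0.76 for FoxD3 against the empty vector and 1.59 for FoxD3-VP16 against FoxD3, each with a standard error of 0.26. As a fold, Sox4 was 3.00-fold higher with FoxD3-VP16 than with FoxD3.

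When each probe set was fitted on its own, the lowest 40% of probe sets, with a mean level below 5.88, were left out, and 5 of the 8 Sox4 probe sets passed that limit. In 4 of these 5 the order FoxD3-VP16, empty vector, FoxD3 held within all 4 replicate numbers. Across the 5, the difference lay between 0.46 and 1.28 for FoxD3-VP16 against the empty vector, between -0.88 and -0.54 for FoxD3 against the empty vector, and between 1.00 and 2.16 for FoxD3-VP16 against FoxD3. The FoxD3 value was below the empty vector value in 20 of 20 pairs of equal number, and the FoxD3-VP16 value was above the empty vector value in 19 of 20. Here and below, such counts pool the probe sets of 1 gene over the same 4 pairs of arrays, so the pairs are not independent. The widest separation was in 1419155_a_at, with 11.50, 10.82, 10.46 and 10.43 on FoxD3-VP16 arrays, 8.69, 9.01, 8.48 and 8.39 on FoxD3 arrays and 10.41, 9.49, 8.84 and 9.33 on empty vector arrays. Here all FoxD3-VP16 arrays were above all others, and the FoxD3 and empty vector arrays overlapped. The exception to the order was 1455867_at, whose FoxD3-VP16 arrays spread from 4.96 on array 3 to 8.84 on array 1. The other 3 probe sets were below the limit; in all 4 numbers the FoxD3 value of 1458332_x_at was below that of the empty vector and the FoxD3-VP16 value of 1443778_at was above that of FoxD3, while their other comparisons and those of 1419157_at varied in direction.

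Sox11, the SoxC factor of neuronal and mesenchymal progenitors closest in role to Sox4, showed the same order with less spread. Probe set 1431225_at read 12.25, 11.46, 11.87 and 12.01 on FoxD3-VP16 arrays 1 to 4, 9.99, 9.78, 10.19 and 10.07 on FoxD3 arrays, and 11.47, 10.72, 10.91 and 11.03 on empty vector arrays. The 4 FoxD3 arrays were below every other array, and FoxD3-VP16 array 2 was the only FoxD3-VP16 array that did not exceed all empty vector arrays. Means were 11.90 ± 0.33 with FoxD3-VP16, 10.01 ± 0.17 with FoxD3 and 11.03 ± 0.32 with the empty vector (SD, n = 4 each). The difference was 0.86 for FoxD3-VP16 against the empty vector, -1.03 for FoxD3 against the empty vector and 1.89 for FoxD3-VP16 against FoxD3, each with a standard error of 0.20. Sox11 was thus 2.04-fold lower with FoxD3 than without a factor and 3.71-fold higher with FoxD3-VP16 than with FoxD3.

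All 6 Sox11 probe sets passed the limit and all 6 kept the order within all 4 numbers, in 24 of 24 pairs for each comparison. Their differences were close to one another, at 0.72 to 0.93 for FoxD3-VP16 against the empty vector, -1.03 to -0.90 for FoxD3 against the empty vector and 1.67 to 1.95 for FoxD3-VP16 against FoxD3. The next brightest, 1436790_a_at, read 11.40, 11.49, 11.83 and 11.36 with FoxD3-VP16, 9.81, 9.88, 9.83 and 9.87 with FoxD3, and 10.76, 10.61, 10.80 and 11.03 with the empty vector. None of its 3 groups overlapped with another. Probe set 1429051_s_at carries the suffix for probes that can match more than 1 transcript, and it behaved like the others, with -0.98 for FoxD3 against the empty vector. The 6 probe sets read 1 RNA and are not replicates of the condition.

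The 3 SoxC promoters are shown because the groups separated in only some of them: FoxD3-VP16 and FoxD3 arrays were apart for Sox4 and Sox11 and overlapped for Sox12. Each is the RefSeq sequence of the 250 bases before the annotated start on GRCm38.p6, read 5′ to 3′ on the gene's strand; all 3 genes lie on the minus strand. Capitals mark matches on either strand to the forkhead motifs TGTTTAC and TGTTTAT, the Sox motifs AACAAT and AACAAAG, and the CCAAT box, the binding motif of NF-Y, which was added to the search after the sequences had been seen.
Sox4, chr13:28953700-28953949: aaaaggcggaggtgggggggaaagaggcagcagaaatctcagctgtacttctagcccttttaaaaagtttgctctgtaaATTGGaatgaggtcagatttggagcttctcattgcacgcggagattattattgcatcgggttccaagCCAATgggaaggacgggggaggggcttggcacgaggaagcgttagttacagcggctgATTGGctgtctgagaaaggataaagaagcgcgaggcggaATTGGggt
Sox11, chr12:27342719-27342968: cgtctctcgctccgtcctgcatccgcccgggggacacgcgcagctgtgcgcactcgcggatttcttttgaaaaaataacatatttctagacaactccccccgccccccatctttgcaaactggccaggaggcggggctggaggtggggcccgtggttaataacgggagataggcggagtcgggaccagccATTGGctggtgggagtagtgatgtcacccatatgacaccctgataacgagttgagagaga
Sox12, chr2:152398047-152398296: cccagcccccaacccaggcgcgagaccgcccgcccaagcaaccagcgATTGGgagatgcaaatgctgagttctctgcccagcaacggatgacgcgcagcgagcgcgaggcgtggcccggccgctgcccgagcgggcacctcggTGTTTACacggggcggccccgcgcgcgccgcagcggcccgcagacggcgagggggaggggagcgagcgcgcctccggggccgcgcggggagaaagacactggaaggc
Sox4 held 4 CCAAT boxes, at 171, 104, 47 and 8 bases before the start, and Sox11 held 1, at 60 bases. At least 1 CCAAT box occurred in 33.8% of 32851 RefSeq promoters of this length, and 4 or more in 0.84%. The limit of 4 is the Sox4 count itself, and the motif was added late, so the 0.84% is no test. Neither promoter contained the forkhead or Sox letters searched for. Sox12 had 1 TGTTTAC, at 107 bases before the start, which occurred in 3.17% of promoters, and 1 CCAAT box. A match is a description of the letters, and nothing about binding of a factor is drawn from it or from its absence.

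**Figure D2:**
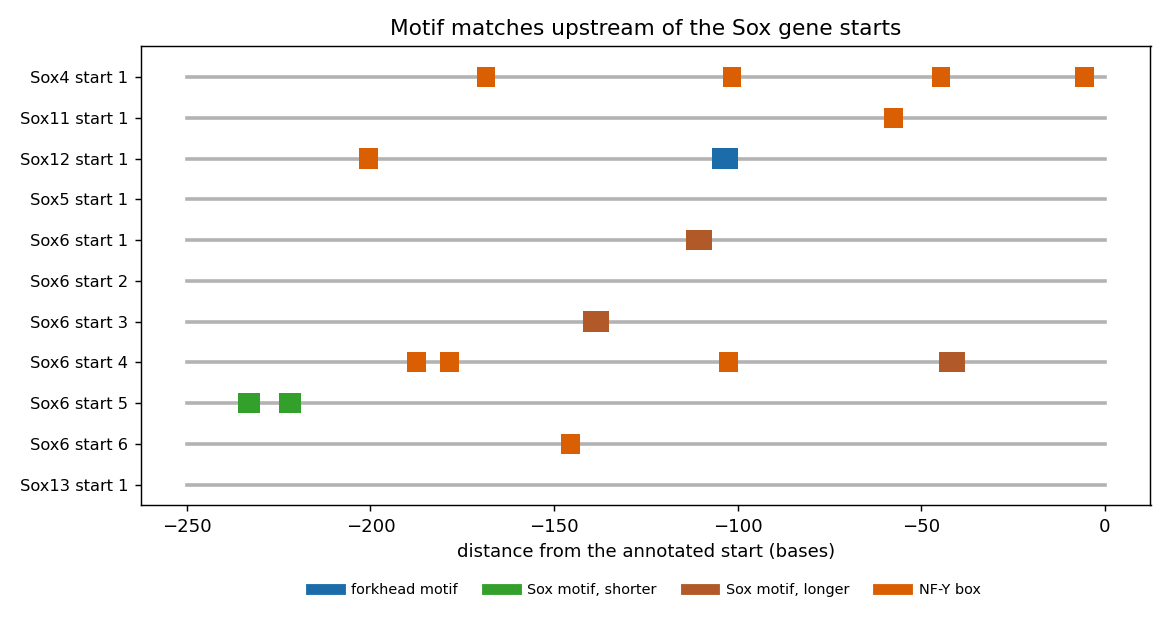
Position of each motif match within the 250 bases before the RefSeq start of the Sox genes with an entry; the x axis is the distance from the start in bases and each row is 1 promoter window, with colours for the kind of motif and NF-Y box for the CCAAT letters. Sox4 carries matches at 171, 104, 47 and 8 bases before its start, and Sox5 and Sox13 carry none. The Sox5 window and all Sox6 windows lie inside the annotated genes, and the Sox13 window lies almost wholly inside its gene.

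Sox12 is the SoxC member with the weakest activation domain. Probe set 1455562_at read 7.01, 6.42, 6.07 and 6.15 on FoxD3-VP16 arrays, 6.54, 5.92, 5.78 and 5.83 on FoxD3 arrays, and 7.28, 5.55, 5.85 and 5.67 on empty vector arrays. The array numbered 1 was the highest in each group, and all 3 groups overlapped. Differences were 0.32 for FoxD3-VP16 against the empty vector, -0.07 for FoxD3 against the empty vector and 0.39 for FoxD3-VP16 against FoxD3, each with a standard error of 0.41. Within numbers FoxD3-VP16 was above FoxD3 all 4 times, by 0.47, 0.50, 0.28 and 0.31, with an SD of 0.11 between these pair differences. The other 2 of its 3 probe sets were below the limit and did not share this direction in every number.

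**Figure D3:**
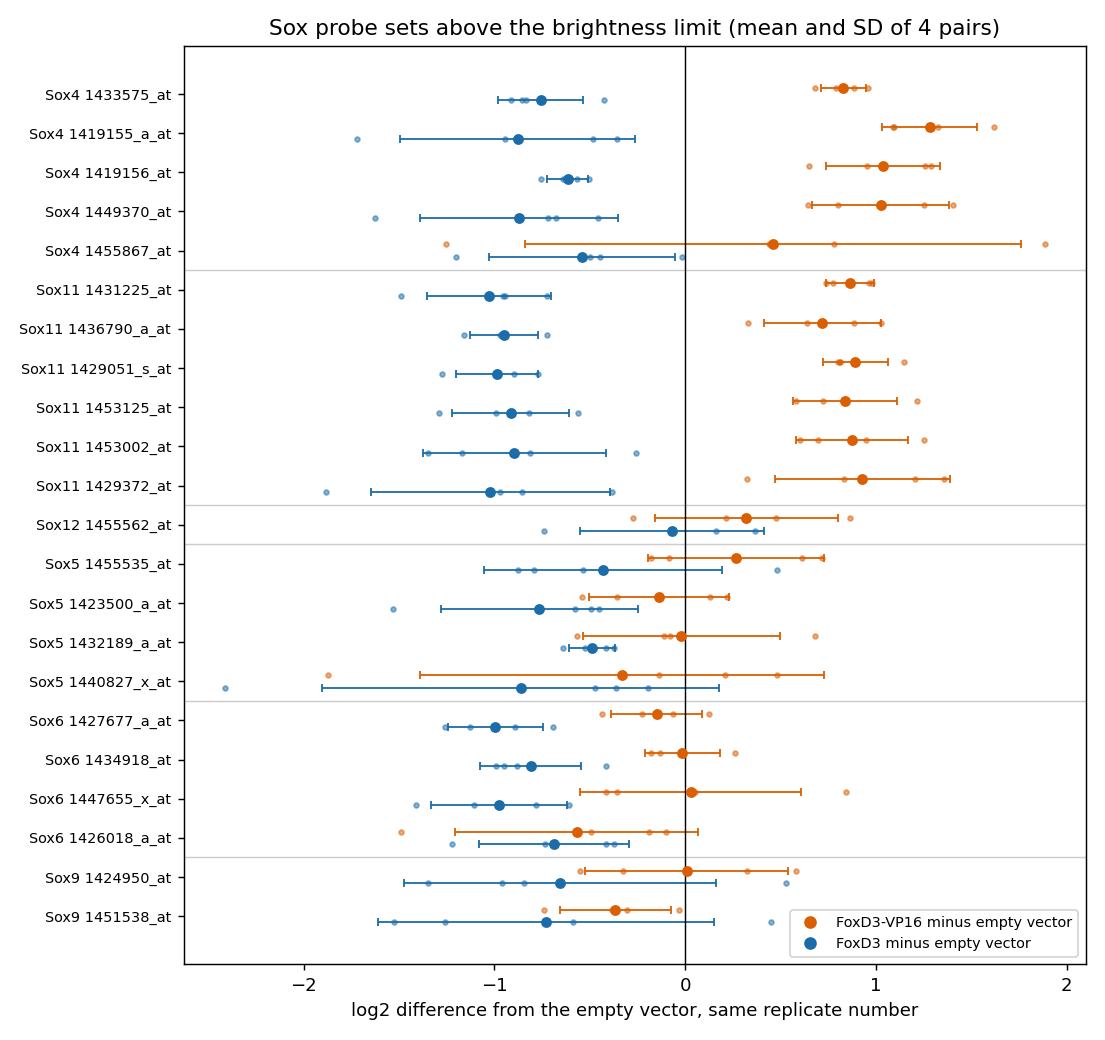
Difference on the log2(intensity + 16) scale for each of the 22 Sox probe sets above the brightness limit, with FoxD3-VP16 minus empty vector drawn above FoxD3 minus empty vector; small points are the 4 pairs of equal replicate number, large points their means and bars their SD. The 6 Sox11 probe sets lie at 0.72 to 0.93 with FoxD3-VP16 and -1.03 to -0.90 with FoxD3, while the 4 Sox6 probe sets lie at -0.57 to 0.03 with FoxD3-VP16 and -0.99 to -0.68 with FoxD3.

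Sox6, a SoxD factor that cooperates with Sox5 and Sox9 in cartilage and represses embryonic globin genes in red cell precursors, differed mainly in the FoxD3 group. Probe set 1427677_a_at read 11.04, 10.63, 10.96 and 10.74 on FoxD3-VP16 arrays, 10.02, 9.99, 9.93 and 10.05 on FoxD3 arrays, and 10.91, 10.69, 11.19 and 11.18 on empty vector arrays. Every FoxD3 array lay below all 8 other arrays, and FoxD3-VP16 overlapped with the empty vector. Means were 10.84 ± 0.19 with FoxD3-VP16, 10.00 ± 0.05 with FoxD3 and 10.99 ± 0.24 with the empty vector (SD, n = 4 each). The difference was -0.15 for FoxD3-VP16 against the empty vector, -0.99 for FoxD3 against the empty vector and 0.84 for FoxD3-VP16 against FoxD3, each with a standard error of 0.15. The FoxD3 level was 1.99-fold lower than that of the empty vector.

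All 4 Sox6 probe sets passed the limit, and FoxD3 was below the empty vector in 16 of 16 pairs of equal number. The differences were -0.57 to 0.03 for FoxD3-VP16 against the empty vector, -0.99 to -0.68 for FoxD3 against the empty vector and 0.12 to 1.01 for FoxD3-VP16 against FoxD3. The next brightest probe set, 1434918_at, read 10.18, 10.19, 10.41 and 10.42 with FoxD3-VP16, 9.24, 9.51, 9.71 and 9.56 with FoxD3, and 10.19, 9.93, 10.59 and 10.55 with the empty vector. Again the FoxD3 arrays stood below the rest. The dimmest, 1426018_a_at, read 5.70, 7.21, 7.60 and 7.56 with FoxD3-VP16, 5.96, 7.29, 7.06 and 7.29 with FoxD3, and 7.18, 7.70, 7.79 and 7.66 with the empty vector. It disagreed with the others over FoxD3-VP16 against FoxD3, at 0.12, and when all probe sets of a gene were averaged Sox6 was no longer called in that comparison. RefSeq lists 6 promoter windows for Sox6. All 6 lie inside the annotated gene, which spans 115470872 to 116040776 on chromosome 7. They therefore belong to internal starts and do not describe the 5′ end of the annotated gene. AACAAAG, present in 5.03% of all promoters, occurred in 3 of the 6 windows, and AACAAT, present in 9.42%, occurred 2 times in another. The CCAAT box, present in 33.8%, occurred 3 times in the window named start 4 and 1 time in that named start 6. Neither forkhead motif occurred.

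Sox5, the other SoxD partner of Sox9 in cartilage and a factor that opposes Sox10 at melanocyte promoters in the mouse, varied more between arrays. Probe set 1455535_at read 8.25, 8.0, 7.91 and 7.67 on FoxD3-VP16 arrays, 7.10, 7.76, 7.20 and 6.96 on FoxD3 arrays, and 7.64, 7.28, 8.08 and 7.76 on empty vector arrays. FoxD3 was below FoxD3-VP16 within every number, with FoxD3 array 2 overlapping the FoxD3-VP16 arrays. The difference was 0.27 for FoxD3-VP16 against the empty vector, -0.43 for FoxD3 against the empty vector and 0.70 for FoxD3-VP16 against FoxD3, each with a standard error of 0.24. The last was called with the replicate block, or when FoxD3 array 2 was left out, and not otherwise in the settings tried.

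Sox5 had 7 probe sets and 4 passed the limit for probe sets of 5.88. In those 4, FoxD3 was below the empty vector in 15 of 16 pairs, by 0.43 to 0.86 on average, and FoxD3-VP16 was above FoxD3 in 15 of 16 pairs. FoxD3-VP16 against the empty vector ranged over both directions, with 7 pairs higher and 9 lower. A probe set below the limit, 1459261_at, went the other way, reading 4.52, 5.57, 5.21 and 4.36 with FoxD3-VP16, 4.83, 6.02, 5.04 and 5.07 with FoxD3, and 4.39, 4.47, 4.26 and 4.32 with the empty vector. Its FoxD3 and empty vector arrays did not overlap, with a difference of 0.88 at the dim end of the scale. No motif searched for occurred in the 1 promoter window each of Sox5 and Sox13. The Sox5 window, at 143947107 to 143947356 on chromosome 6, lies inside the annotated gene, which spans 143828425 to 144782287. It therefore belongs to an internal start and does not describe the 5′ end of the gene. The Sox13 window, at 133424213 to 133424462 on chromosome 1, lies almost wholly inside the annotated gene, which spans 133382300 to 133424459.

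Sox13, the third SoxD factor, known from lymphocytes and from developing artery walls, had 1 probe set, and its mean level was below the limit, so it entered no fit. Its 1450191_a_at read 6.88, 4.41, 4.72 and 4.50 on FoxD3-VP16 arrays, 6.05, 5.92, 4.82 and 5.97 on FoxD3 arrays, and 6.42, 4.38, 6.34 and 5.93 on empty vector arrays. The groups overlapped and the direction changed between replicate numbers in every comparison.

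Sox9, the SoxE factor of cartilage and early neural crest, had different values with and without the arrays numbered 1. Probe set 1424950_at read 6.53, 7.31, 7.39 and 7.41 on FoxD3-VP16 arrays, 6.47, 7.02, 6.37 and 6.12 on FoxD3 arrays, and 5.95, 7.86, 7.72 and 7.08 on empty vector arrays. FoxD3 exceeded the empty vector in number 1 and was below it in numbers 2, 3 and 4. Over all arrays the difference was 0.01 for FoxD3-VP16 against the empty vector, -0.66 for FoxD3 against the empty vector and 0.66 for FoxD3-VP16 against FoxD3, each with a standard error of 0.40, and none was called. With the 3 arrays numbered 1 left out, FoxD3 against the empty vector was -1.15 and was called. That choice removes the only number in which FoxD3 exceeded the empty vector, so nothing is read from the call. The second probe set, 1451538_at, read 6.02, 7.09, 6.90 and 6.80 with FoxD3-VP16, 6.50, 6.89, 5.94 and 6.01 with FoxD3, and 6.05, 7.48, 7.20 and 7.54 with the empty vector. It has the same turn between number 1 and the others. The third, 1433889_at, was below the limit, and its FoxD3-VP16 arrays, at 4.22 to 4.67, lay below all FoxD3 arrays, at 4.75 to 5.34.

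Across the 32 probe sets, 22 passed the limit of 5.88, through their mean over all 12 arrays. Of these, limma called 0 for FoxD3-VP16 against the empty vector, with 9 at an unadjusted p under 0.05; over all probe sets the shares were 0.3% and 8.48%. It called 5 for FoxD3 against the empty vector, all lower, with a background of 0.73%, and 12 for FoxD3-VP16 against FoxD3, all higher, with a background of 3.33%. Groups did not overlap in 5 of the 22 for FoxD3-VP16 above the empty vector, where 2.92% of all probe sets were so separated. They did not overlap in 9 for FoxD3 below the empty vector, against 4.03%, and in 13 for FoxD3-VP16 above FoxD3, against 7.23%. The strict order FoxD3-VP16, empty vector, FoxD3 within all 4 numbers held in 10 probe sets, all of Sox4 or Sox11, and in 3.08% of all probe sets. The probe sets of 1 gene share their RNA, and the contrasts chose the genes. The counts are therefore a description of the members, and they are no test against the shares of all probe sets.

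The patterns closest to those of Sox4, Sox11 and Sox6 were found by Pearson correlation over the 12 arrays, after the mean of each replicate number was subtracted, among all tested genes. The arrays fall into 3 vector groups, so r is high for any gene with a like order and spacing of the groups. For Sox4 the 3 highest were Foxp1, a forkhead repressor, at r = 0.997, the corepressor Rere at 0.992 and the chaperone Dnajb4 at 0.992. Their differences for FoxD3 against the empty vector were -0.48, -0.36 and -1.09. For Sox11 they were Zfp760 at 0.996, Tanc1 at 0.995 and Eola1 at 0.993, with -0.94, -0.55 and -0.59. For Sox6 they were Mettl15 at 0.996, Arhgap21 at 0.989 and Cep57l1 at 0.981, with -0.72, -0.57 and -0.44. The choice by correlation fixes that these genes order the groups as Sox4, Sox11 and Sox6 do.

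The other 13 Sox genes on the array set the members in their family. Only Sox10 and Sox21 were bright enough to be tested. Sox10, the SoxE factor that maintains the melanocyte lineage, went the opposite way to Sox4 and Sox11, with means of 11.95 ± 0.17 with FoxD3-VP16, 13.39 ± 0.10 with FoxD3 and 12.67 ± 0.07 with the empty vector (SD, n = 4 each). Its limma differences were -0.72 for FoxD3-VP16 against the empty vector (adjusted p = 0.0178), 0.73 for FoxD3 against the empty vector (adjusted p = 0.00287) and -1.45 for FoxD3-VP16 against FoxD3 (adjusted p = 1.5e-05). Sox21, a SoxB repressor, was not called in any comparison.

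The known targets of the members were read next. Of 27 genes described as targets of SOX9 or SoxD in cartilage, 26 were on the array and 14 were tested. With FoxD3, 4 of the 14 rose against the empty vector and 0 fell, where 2.89% of all tested genes rose and 1.12% fell. An unadjusted limma p under 0.05 was found for 5. No share of all tested genes is given for this count, so nothing is read from it. One of the 4, the fibrillar collagen Col2a1, passed the limit of 5.98 only through its FoxD3 arrays and had to differ: its means were 5.15 ± 0.84 with FoxD3-VP16, 9.52 ± 0.99 with FoxD3 and 5.0 ± 0.66 with the empty vector (SD, n = 4 each). Its test is therefore not used. Col2a1 is still part of the counts of 4 and 5 above. With the block, below, it is part of the 4 that rose with FoxD3 and the 5 that fell with FoxD3-VP16 against FoxD3. Those counts are therefore not read against the shares of all tested genes. The other genes of the 4 were Col11a2 (2.80, adjusted p = 0.00287), whose empty vector mean of 5.94 was also under the limit, Col9a3 (1.72, adjusted p = 0.0209) and the receptor Fgfr3 (1.51, adjusted p = 0.00818). These rises stood beside lower levels of Sox6 and, in 3 of 4 replicate numbers, of Sox9, which was not called over all arrays. Sox10 was higher with FoxD3 than with the empty vector, by 0.73. A link between these Sox genes and the rises was not tested. With FoxD3-VP16 against the empty vector only the matricellular gene Ccn2 rose (2.54, adjusted p = 0.0192), where 0.522% of all tested genes did. Of the 14 genes, 3 had an unadjusted limma p under 0.05. The share given for this, 8.48% in either direction, is of probe sets fitted singly and is no matched share for genes. Against FoxD3, FoxD3-VP16 had Col9a1 (2.27, adjusted p = 0.00271) and Ccn2 (2.23, adjusted p = 0.00466) higher, where 4.44% of all tested genes rose. It had Col9a3, Col11a2 and Fgfr3 lower (-2.52, -2.24 and -1.58), and Col2a1 as described, where 5.13% fell. With the replicate block 3 rose with FoxD3-VP16 against the empty vector, where 5.73% of all tested genes did. With FoxD3 against the empty vector 4 rose and 2 fell, where 11.8% of all tested genes rose and 9.21% fell. With FoxD3-VP16 against FoxD3 4 rose and 5 fell, where 14.6% rose and 17.5% fell.

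Chondrocytes are the main makers of these collagens. None of the 5 chondrocyte markers (Acan, Matn1, Comp, Hapln1 and Cnmd), which are also on the target list, was above the limit, and the log2 of their summed intensity was 7.27 to 7.86 with FoxD3-VP16, 7.41 to 8.13 with FoxD3 and 7.33 to 8.36 with the empty vector. The summed level of the 7 fibroblast markers was 8.98 to 9.54 with FoxD3-VP16, 9.12 to 9.65 with FoxD3 and 8.45 to 9.07 with the empty vector, so that the FoxD3 range lay above that of the empty vector. The 7 did not move as one: for FoxD3 against the empty vector Col1a1 differed by 2.68 and Pdgfra by 1.21, whereas Col1a2, the brightest, was lower in all 4 numbers, by -0.72 on average, and Dcn and Thy1 differed by -0.26 and -0.03. The part of this sum in the collagen results was not tested.

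**Figure D4:**
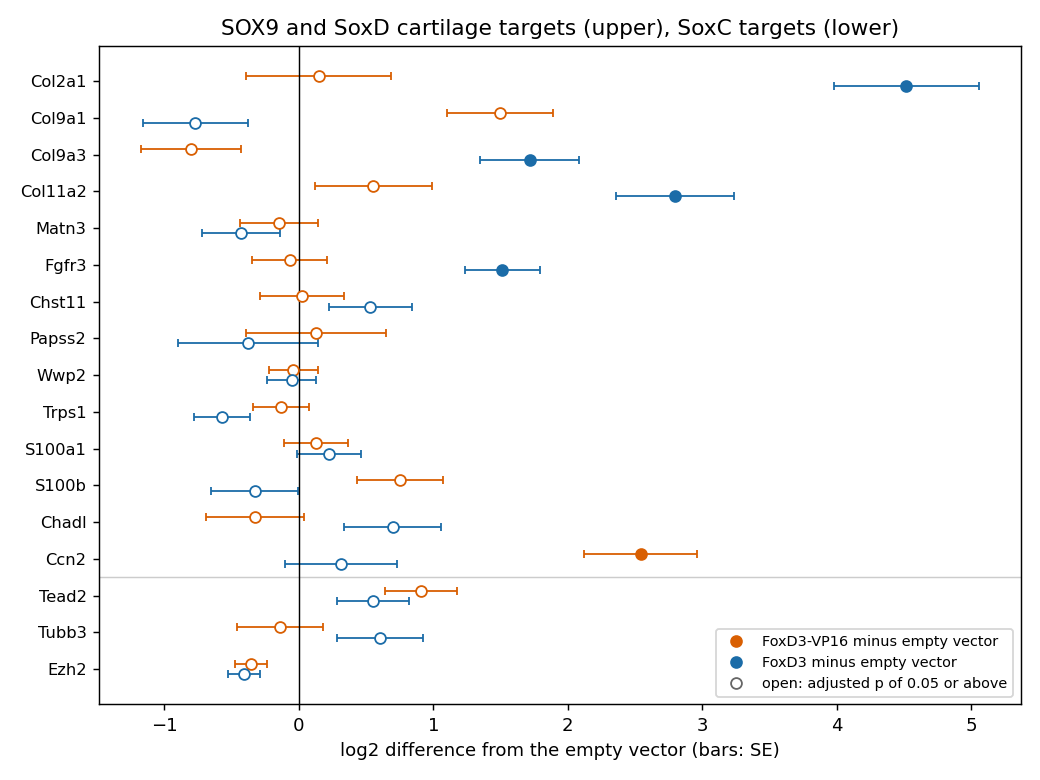
Difference on the log2(intensity + 16) scale for the tested cartilage and SoxC targets, with FoxD3-VP16 minus empty vector above FoxD3 minus empty vector for each gene; bars are standard errors from limma, and filled points have an adjusted p under 0.05. Col9a3 stands at -0.80 with FoxD3-VP16 and 1.72 with FoxD3, and Ccn2 at 2.54 with FoxD3-VP16 and 0.31 with FoxD3; Col2a1 is in the plot only through its FoxD3 arrays.

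For the SoxC factors, 3 of 4 targets described in other cells were tested, and limma called 0 in each comparison. An unadjusted limma p under 0.05 was found for 2 with FoxD3-VP16 against the empty vector. In that comparison 8.48% of all tested probe sets had one in either direction, which is no matched share for genes. For FoxD3 against the empty vector it was found for 1, and for FoxD3-VP16 against FoxD3 for 1. No share of all tested genes is given for these 2 comparisons, so nothing is read from their counts. The effector of Hippo signalling Tead2 differed by 0.91 for FoxD3-VP16 against the empty vector (adjusted p = 0.206) and 0.55 for FoxD3 against the empty vector (adjusted p = 0.340). The neuronal tubulin Tubb3 differed by -0.14 for FoxD3-VP16 against the empty vector (adjusted p = 0.959) and 0.60 for FoxD3 against the empty vector (adjusted p = 0.394). The histone methyltransferase Ezh2 differed by -0.35 for FoxD3-VP16 against the empty vector (adjusted p = 0.285) and -0.41 for FoxD3 against the empty vector (adjusted p = 0.0783). With the block, Tead2 was called higher with FoxD3-VP16 against the empty vector (adjusted p = 0.00971), where 5.73% of all tested genes were higher. Ezh2 was called lower with both factors (adjusted p = 0.0131 with FoxD3-VP16 and 0.00260 with FoxD3), where 5.41% and 9.21% of all tested genes were lower. Tubb3 was called higher with FoxD3 against the empty vector (adjusted p = 0.0407), where 11.8% were higher. It was called lower with FoxD3-VP16 against FoxD3 (adjusted p = 0.00996), where 17.5% were lower. None of Tead2, Tubb3 and Ezh2 had the order of Sox4 and Sox11, and Dcx, at a mean of 4.89, was below the limit.

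Of 10 melanocyte and glial genes described as SoxE targets, 8 were on the array and 6 were tested. With FoxD3 against the empty vector Erbb3, a glial and melanoblast receptor, rose by 0.97 (adjusted p = 0.00367) and Mitf, the melanocyte master regulator, fell by 1.09 (adjusted p = 0.00483), where 2.89% of all tested genes rose and 1.12% fell; the block called 3 lower, against 9.21%. With FoxD3-VP16 against the empty vector limma called 0, with 3 at an unadjusted p under 0.05, where 0.522% of all tested genes were called higher and 0.0733% lower. At the unadjusted limit the share of all tested probe sets was 8.48% in either direction, which is no matched share for genes. The block called 3 lower, against 5.41% of all tested genes, among them Erbb3 (adjusted p = 0.0131) and Mitf (adjusted p = 0.0282). With FoxD3-VP16 against FoxD3, Tyr (0.89, adjusted p = 0.0360) and Mitf (0.66, adjusted p = 0.0389) rose and Erbb3 fell by 1.58 (adjusted p = 8.6e-05), where 4.44% rose and 5.13% fell. Erbb3 ran in the direction of Sox10, whereas Mitf was lower with FoxD3 like Sox6.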

How the data were processed

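The authors deposited linear intensities of 45101 probe sets from 12 arrays. MAS5, with no version, is named per the submitters' processing notes, and a label names dChip. Here log2(intensity + 16) was computed and quantile normalized, because array medians spanned 0.79, above the limit of 0.5. The 64 control probe sets were left out, as were 932 probe sets with several symbols and 9160 not listed. The probe set with the highest mean stood for a gene, and the lowest 40% of genes were not tested. Groups were compared over all 12 arrays by limma (version 3.58.1, under R 4.3.3; lmFit, then eBayes with a trend on intensity), without a block, and p-values were adjusted by Benjamini-Hochberg; the calculation was tested on simulated data. Figures were drawn with matplotlib 3.10.9.

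The labels do not say what the replicate numbers share. The source of the pairing is a correlation: deviations from the group means gave r of 0.37 to 0.67 for the 12 same-number pairs, 0.37 to 0.54 for the 6 pairs of a number 3 with a number 4, and -0.51 to 0.12 for the other 30. The Sox genes, gene lists and tests were chosen with earlier results of these data known. All probe sets of the 7 Sox genes were described, with up to 4 called genes of each target list per comparison. Promoters came from RefSeq (GRCm38.p6); 6 of the 7 genes matched, with 11 windows. The alternatives were other pseudocounts, filters and probe set rules, no quantile normalization, the block and leaving out arrays.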

Additional observations from a re-analysis of the deposited data

Results flagged for a closer look

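Among 96 groups of 4 arrays, 1 for each of the 32 Sox probe sets in each vector group, 8 held an array far from the other 3 by Dixon's criterion, where chance gives about 1 in 20. Of the 8, 6 were arrays numbered 1. Sox4 probe set 1433575_at read 13.47 on empty vector array 1, against 12.53 to 12.57 on the other 3. Sox5 probe set 1432189_a_at read 4.26 on FoxD3 array 1, against 6.40 to 6.66, and 4.79 on empty vector array 1, against 7.03 to 7.04. Sox5 probe set 1440827_x_at read 4.13 on FoxD3 array 1, against 5.86 to 5.99, and Sox5 probe set 1432190_at read 4.26 on FoxD3 array 4, against 4.68 to 4.76. Sox13 probe set 1450191_a_at read 6.88 on FoxD3-VP16 array 1, against 4.41 to 4.72, and 4.82 on FoxD3 array 3, against 5.92 to 6.05. Sox9 probe set 1424950_at read 6.53 on FoxD3-VP16 array 1, against 7.31 to 7.41.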

How the results depend on the processing

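Sox11 and Sox6 were called lower for FoxD3 against the empty vector, and Sox4 and Sox11 higher with FoxD3-VP16 than with FoxD3, under every alternative run; the genes were selected on these comparisons, so this is no support for them. Sox6 was called in the second of these comparisons under all but the mean of all probe sets. With the replicate block, which uses the pairing of the arrays, 2 Sox genes were called for FoxD3-VP16 against the empty vector in place of 0, and the numbers of all genes called became 1217 in place of 65 there, 2297 in place of 438 for FoxD3 against the empty vector and 3498 in place of 1045 for FoxD3-VP16 against FoxD3. With the mean of all probe sets, 1 Sox gene, Sox11, was called for FoxD3-VP16 against the empty vector. With the lowest 60% left out, 274 genes were called for FoxD3 against the empty vector. With arrays left out, the Sox genes called ranged from 0 to 2 for FoxD3-VP16 against the empty vector, from 2 to 4 for FoxD3 against it and from 3 to 4 for FoxD3-VP16 against FoxD3. The genes called in all ranged from 13 to 277, from 197 to 870 and from 602 to 1815 in the same order. Without the 3 arrays numbered 1, Sox4 and Sox9 joined Sox6 and Sox11 for FoxD3 against the empty vector, and Sox4 and Sox11 were called for FoxD3-VP16 against it; Sox11 was also called there without FoxD3-VP16 array 2 or without empty vector array 1. For Sox9, the arrays numbered 1 hold the only replicate number in which FoxD3 was above the empty vector. The cause of these shifts was not tested. No alternative turned a called direction. The dim probe sets of Sox12 and Sox9 had larger standard errors than those of Sox4, Sox11, Sox5 and Sox6 used for the genes, and 4 arrays per group limit the precision of all.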

Other observations

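Sox8, the third SoxE gene, was below the limit for testing. Its mean level was 4.22 ± 0.05 with FoxD3-VP16, 5.44 ± 0.40 with FoxD3 and 4.41 ± 0.24 with the empty vector (SD, n = 4 each), and the FoxD3 arrays did not overlap with either other group. It was chosen for mention after its values were seen. Groups also separated for Sox17 and Sox15, which were below the limit too. FoxD3-VP16 arrays of Sox17 lay above both other groups, by 0.85 against the empty vector and 1.01 against FoxD3. FoxD3-VP16 arrays of Sox15 lay above those of FoxD3, by 0.83. In the remaining untested Sox genes outside the members, all groups overlapped.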
